A study of Mus musculus with 70 samples.

Results

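The enzymes that carry acetyl-CoA to squalene, the mevalonate arm of cholesterol synthesis, were followed in the hippocampus of APP23 mice and their littermates through 8 genes: Acat2, Hmgcs1, Mvk, Pmvk, Mvd, Idi1, Fdps and Fdft1. They were taken by name for their place in the pathway, though with earlier results of these data known. They are 8 of the 14260 genes of the deposited table. Transgenic mice (TG, B6.Cg-Tg(Thy1-APP)3Somm/J) carry a human APP gene with a familial Alzheimer mutation under the Thy1 promoter, which drives it mainly in neurons, and non-transgenic littermates (NTG) lack it. Time-restricted feeding (TRF) gave food for 6 h a day, from Zeitgeber time (ZT) 15 to 21, with ZT0 at lights on, while ad libitum feeding (ALF) set no limit. The groups were 18 TG on TRF, 16 NTG on TRF, 19 TG on ALF and 16 NTG on ALF, in all 69 animals, and hippocampus of 1 hemisphere was used from each. Mice were aged 6 to 9 months when TRF began, and tissue was taken at 10 to 13 months. All groups were housed singly, and some animals had first been through constant darkness and a shifted light cycle, which the labels do not tie to a sample. The sex of a sample is not given. At ZT0, ZT6, ZT12 and ZT18 the groups held 6, 4, 5 and 3 animals (TG on TRF), 6, 2, 6 and 2 (NTG on TRF), 6, 4, 6 and 3 (TG on ALF), and 7, 1, 6 and 2 (NTG on ALF).

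The pathway joins acetyl-CoA units into mevalonate, turns mevalonate into activated isoprene units and joins these into farnesyl diphosphate and then squalene, the first intermediate committed to sterols. Its intermediates also feed ubiquinone, dolichol and the prenyl groups of proteins. Brain makes its own cholesterol, because that of the blood does not cross the barrier. The genes are known targets of SREBP2, the product of Srebf2, a transcription factor released from the endoplasmic reticulum when membrane sterol is low. It binds sterol regulatory elements, usually beside CCAAT boxes bound by NF-Y and GC boxes bound by Sp1.

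Of the members, Hmgcs1, Acat2 and Mvd were higher in TG hippocampus, and Idi1 did not pass the test. The stretches of 250 bases before the RefSeq start of these 4 are shown. They are RefSeq sequences on GRCm38.p6, 5′ to 3′ on the gene's strand, with capitals at each match to the sterol regulatory element TCACNCCAC, the CCAAT box CCAAT and the GC box GGGCGG on either strand, and no 2 matches overlap. The windows are chr13:119690101-119690350 (plus strand) for Hmgcs1, chr17:12960726-12960975 (minus) for Acat2, chr8:122443423-122443672 (minus) for Mvd and chr13:8885356-8885605 (plus) for Idi1. RefSeq starts can differ from those of the GENCODE gene spans given further on, and the windows of Idi1 and Acat2 reach into those spans.
Hmgcs1: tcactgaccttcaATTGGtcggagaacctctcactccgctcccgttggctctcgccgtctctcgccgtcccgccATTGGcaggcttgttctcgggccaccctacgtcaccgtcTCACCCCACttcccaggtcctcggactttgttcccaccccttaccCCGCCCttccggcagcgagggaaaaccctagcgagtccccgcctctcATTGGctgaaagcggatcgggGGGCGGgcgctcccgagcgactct
Acat2: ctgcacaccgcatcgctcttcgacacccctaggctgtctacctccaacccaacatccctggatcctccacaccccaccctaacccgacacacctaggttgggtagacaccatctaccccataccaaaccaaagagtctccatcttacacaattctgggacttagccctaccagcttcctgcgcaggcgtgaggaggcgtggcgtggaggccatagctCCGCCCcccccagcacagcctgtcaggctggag
Mvd: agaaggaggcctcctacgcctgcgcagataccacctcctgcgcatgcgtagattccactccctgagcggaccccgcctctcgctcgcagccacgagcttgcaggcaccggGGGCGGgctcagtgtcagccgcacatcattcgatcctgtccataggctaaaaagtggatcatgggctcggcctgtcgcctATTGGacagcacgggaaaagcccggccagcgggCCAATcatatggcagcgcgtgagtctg
Idi1: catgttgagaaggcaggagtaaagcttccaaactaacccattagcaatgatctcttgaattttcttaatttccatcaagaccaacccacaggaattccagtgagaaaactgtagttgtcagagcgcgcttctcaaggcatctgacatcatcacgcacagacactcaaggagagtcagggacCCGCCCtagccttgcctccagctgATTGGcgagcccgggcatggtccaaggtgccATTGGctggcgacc
Of the 8 members 6 have an entry, and Fdps and Fdft1 have none. The letters of the sterol regulatory element were found in 1 of the 6, Hmgcs1, at bases -137 to -129 from the start, and in 1.05% of 32851 windows of the same length. CCAAT was found in 5 members, all of the 6 except Acat2, and in 33.8% of windows, and the GC box in 5, all but Pmvk, and in 32.7% of windows. Mvk had 5 CCAAT boxes, Hmgcs1 3, and Mvd and Idi1 2 each. Mvd and Idi1 had the same tally, with 1 GC box each and 0 matches to the sterol regulatory element. A match is a description of the letters and not a bound site. Only these exact letters in these windows were searched, so a missing match does not show that an element is absent.

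The deposited values are gene counts divided by 1 size factor per library, called normalized counts here. Estimated reads per library in the genes of the table ran from 27.9 M to 47.1 M (median 37.2 M). Reads of Thy1, the source of the promoter, told the genotypes apart without overlap, at 101986 to 171318 normalized counts in TG and 14727 to 29068 in NTG. Markers of choroid plexus, a tissue beside the hippocampus, varied widely, with a summed level of 13 genes from 8004 to 298765 (TG on TRF), 7175 to 332202 (NTG on TRF), 8562 to 270989 (TG on ALF) and 7271 to 254416 (NTG on ALF). Aqp1 and Slc4a5 of that list were at 0 in the lowest animals. The median correlation of an animal with the others was 0.940 to 0.985, and the 5 lowest were NTG_ALF_107, NTG_ALF_1, TG_ALF_16 and TG_ALF_5, all at ZT0, and TG_TRF_104 at ZT12. Animals at ZT6 (11) and ZT18 (10) are all numbered in the 300s, against 2 of 25 at ZT0 and 1 of 23 at ZT12. The labels do not say what a number series means.

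All 8 genes were measured, and none was lost to a filter. Per kilobase of exon (the union of annotated exons, GENCODE), the level over all animals was highest for Hmgcs1, cytosolic HMG-CoA synthase, at 2676 normalized counts per kb. It lies on chromosome 13 (119690379 to 119708260, plus strand; all gene coordinates are on GRCm38). Next came Fdft1, squalene synthase, at 1027 per kb (chromosome 14, 63145150 to 63179578, minus). Acat2, the cytosolic thiolase that makes acetoacetyl-CoA (chromosome 17, 12942890 to 12960747, minus), was at 567 per kb. Close to it were Pmvk, phosphomevalonate kinase, at 550 per kb (chromosome 3, 89454541 to 89469013, plus) and Fdps, which makes farnesyl diphosphate, at 514 per kb (chromosome 3, 89093588 to 89101959, minus). Mvd, the decarboxylase that yields isopentenyl diphosphate (chromosome 8, 122433601 to 122443422, minus), was at 401 per kb. Lowest were Idi1, isopentenyl diphosphate isomerase, at 287 per kb (chromosome 13, 8885501 to 8892451, plus) and Mvk, mevalonate kinase, at 266 per kb (chromosome 5, 114444269 to 114460591, plus).

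The levels of neighbours in this order overlapped. Per kb of exon, TG animals averaged 630 ± 74.97 for Acat2, 581 ± 94.1 for Pmvk and 584 ± 64.3 for Fdps (SD, n = 37). NTG animals averaged 495 ± 45.9, 514 ± 96.5 and 433 ± 43.6 for the same genes (SD, n = 32). These 3 did not stand apart beyond their spread, and neither did Idi1 (305.2 ± 60.2 in TG and 265 ± 45.7 in NTG) and Mvk (285 ± 44.3 in TG and 245 ± 31.4 in NTG). The place of Fdps depends on the length used, since its exon union is 4208 bases and its longest coding transcript 1382. Per kb of that transcript it stood second, at 1779 ± 196 in TG and 1319 ± 133 in NTG. Some annotated genes overlap the members, and whether reads were counted by strand is not given in the sources used here, so a share of reads in the overlaps is uncertain. Fdft1 shares 774 bases with Ctsb on the opposite strand, and Ctsb, at a mean level of 20414 normalized counts, differed by -0.0024 ± 0.032 (log2, TG against NTG on ALF, ± SE). Hmgcs1 shares 6190 bases with an antisense transcript, Mvd lies within Gm20388, and Fdps shares 7512 bases with Gm43738 on its own strand. Acat2 has a paralog next to it, Acat3, at a mean level of 133.

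**Figure D1:**
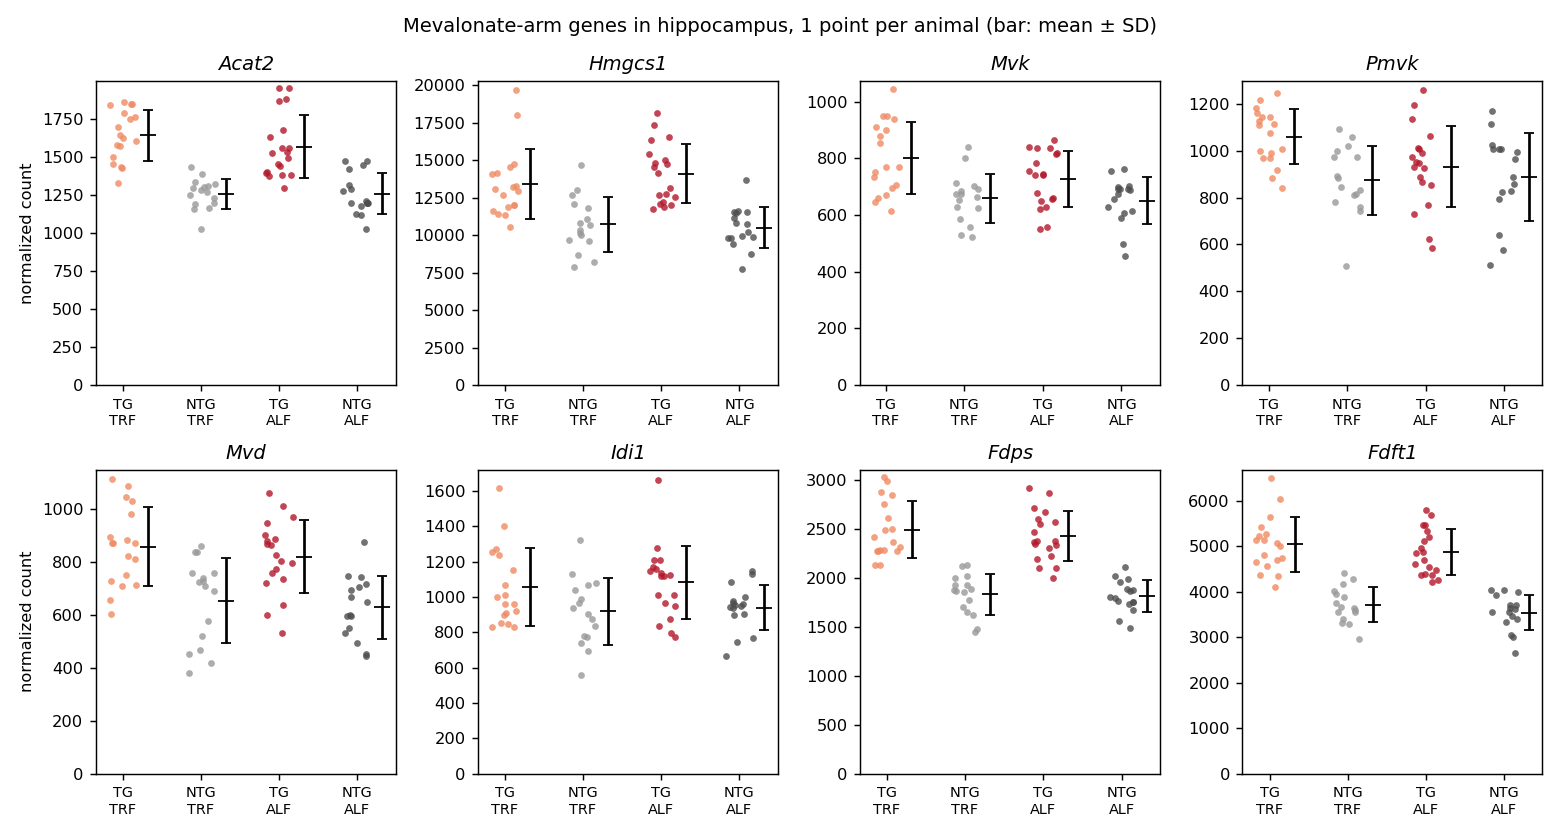
Normalized count (y axis, from 0) of each of the 8 genes in the 4 groups (x axis), with 1 point per animal and the mean ± SD as a bar. For Fdft1 all 19 TG points on ALF, from 4203 to 5804, lie above all 16 NTG points on ALF, from 2651 to 4048, while the points of Pmvk and Idi1 overlap on ALF.

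Under ad libitum feeding the question was whether these enzymes differed with the transgene. Of the 8 members 5 were higher in TG than in NTG hippocampus on ALF and none was lower, where 0.119% of all 14260 genes were called higher and 0.0701% lower (limma on log2(normalized count + 1), Benjamini-Hochberg over all genes, adjusted p under 0.05). The 5 were Acat2 and Hmgcs1 at the head of the arm, Mvd in its middle, and Fdps and Fdft1 at its end. All 8 log2 differences were positive, with a median of 0.34, against -0.0017 over all genes tested. That the arm was higher in TG was known from earlier results on these data, so the counts describe it and are not independent support.

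Fdft1 ranged from 4203 to 5804 normalized counts in TG mice on ALF (median 4841) and from 2651 to 4048 in NTG mice on ALF (median 3587). The groups did not overlap. Its log2 difference was 0.46 ± 0.04 (SE, adjusted p = 4.35e-12, limma, n = 19 and 16). For this and other cases of no overlap, the share of all genes without overlap is not given here. Fdps ranged from 1996 to 2917 in TG (median 2377) and from 1486 to 2111 in NTG (median 1798). Here 16 of 19 TG animals were above the highest NTG animal, and the difference was 0.41 ± 0.05 (adjusted p = 1.98e-09, limma).

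Hmgcs1, which makes HMG-CoA from acetoacetyl-CoA, ranged from 11754 to 18106 in TG on ALF (median 14167) and from 7759 to 13674 in NTG (median 10475). All 19 TG animals were above the NTG median, and 15 of 16 NTG animals were below the lowest TG animal (0.41 ± 0.06, adjusted p = 1.52e-05, limma). Acat2 ranged from 1292 to 1952 in TG (median 1527) and from 1028 to 1476 in NTG (median 1203). All 19 TG animals were above the NTG median, and the difference was 0.30 ± 0.05 (adjusted p = 3.18e-05, limma).

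The enzymes between mevalonate and the isoprene units were less uniform. Mvd ranged from 529 to 1060 in TG (median 827) and from 443 to 873 in NTG (median 622). The ranges overlapped, with 17 of 19 TG animals above the NTG median, and the difference of 0.39 ± 0.09 was near the threshold (adjusted p = 0.0416, limma). It passed in 46 of 69 fits that left out 1 animal. Mvk averaged 725 ± 98.7 in TG and 651 ± 83.8 in NTG (SD), a log2 difference of 0.14 ± 0.06 (adjusted p = 0.622, limma). Pmvk averaged 932 ± 175 in TG and 887 ± 187 in NTG (0.08 ± 0.09, adjusted p = 1, limma). Idi1, at 1082 ± 205 in TG and 940.0 ± 129.3 in NTG, differed by 0.16 ± 0.09 (adjusted p = 0.74, limma). Their 95% intervals reached 0.26 for Mvk and Pmvk and 0.33 for Idi1, so differences up to these sizes lie within them.

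Under TRF, 6 of 8 members were higher in TG than in NTG mice and none was lower, where 0.0982% of all genes were called higher and 0.0351% lower. These are other animals than those on ALF. The members called were Acat2, Hmgcs1, Mvk, Mvd, Fdps and Fdft1, and all 8 log2 differences were positive, with a median of 0.35 (all genes 0.0012).

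Fdps ranged from 2132 to 3027 in TG on TRF (median 2391) and from 1445 to 2132 in NTG on TRF (median 1870). The groups did not overlap, but the lowest TG animal, at 2131.84, and the highest NTG animal, at 2131.53, all but met. The log2 difference was 0.45 ± 0.05 (adjusted p = 9.15e-11, limma, n = 18 and 16). Fdft1 ranged from 4094 to 6489 in TG (median 5031) and from 2965 to 4409 in NTG (median 3657). Of the 18 TG animals 15 were above the highest NTG animal (0.44 ± 0.04, adjusted p = 2.36e-11, limma).

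Acat2 ranged from 1325 to 1862 in TG on TRF (median 1635) and from 1023 to 1431 in NTG (median 1276), and 16 of 18 TG animals were above all NTG animals (0.38 ± 0.05, adjusted p = 7.89e-08, limma). Hmgcs1 ranged from 10555 to 19674 in TG (median 13018) and from 7860 to 14696 in NTG (median 10501). The ranges overlapped, with 3 of 18 TG animals above all NTG animals, and the difference was 0.32 ± 0.06 (adjusted p = 0.00272, limma).

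Mvd averaged 857 ± 149 in TG and 653 ± 160 in NTG on TRF (SD) and differed by 0.43 ± 0.09 (adjusted p = 0.0151, limma). Mvk averaged 802 ± 127.1 in TG and 659 ± 86.6 in NTG, a difference of 0.27 ± 0.06 (adjusted p = 0.0327), which passed in 56 of 69 fits that left out 1 animal. For Pmvk 17 of 18 TG animals were above the NTG median, at 1060 ± 117.7 in TG and 874 ± 146 in NTG, with a difference of 0.29 ± 0.09 that did not pass (adjusted p = 0.359). Idi1 differed by 0.18 ± 0.09 (adjusted p = 0.709, limma). Fitted on ZT0 and ZT12 animals alone, 3 members passed on TRF, where 9 of all 14260 genes were called higher and 3 lower.

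**Figure D2:**
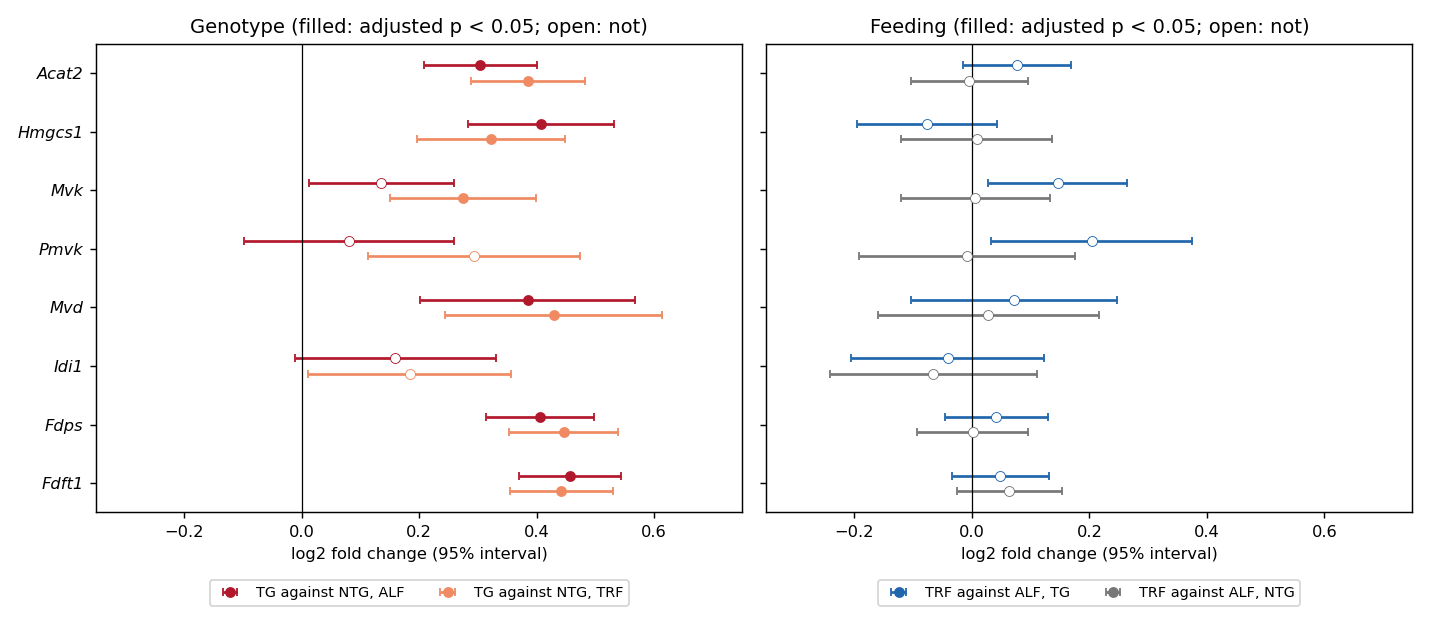
Log2 fold change (x axis) with its 95% interval for each gene (rows), TG against NTG on each feeding at left and TRF against ALF in each genotype at right. Filled points passed an adjusted p of 0.05 and open ones did not. Genotype points lie to the right of 0 for all 8 genes, and 5 on ALF and 6 on TRF are filled, while all feeding points are open.

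Averaged over both feedings, TG were higher for 6 of 8 members, where 0.168% of all genes were called higher and 0.281% lower. The log2 difference was 0.45 ± 0.03 for Fdft1 (adjusted p = 1.13e-18), 0.43 ± 0.03 for Fdps, 0.41 ± 0.07 for Mvd, 0.37 ± 0.04 for Hmgcs1, 0.34 ± 0.03 for Acat2 and 0.20 ± 0.04 for Mvk (adjusted p = 0.00637, limma, n = 37 and 32). Pmvk at 0.19 ± 0.06 (adjusted p = 0.282) and Idi1 at 0.17 ± 0.06 (adjusted p = 0.325) did not pass. By number series, 4 members passed among animals numbered in the 300s (16 TG and 8 NTG) and 5 among those under 300 (21 TG and 24 NTG). Fdft1 differed by 0.53 ± 0.06 in the 300s and 0.42 ± 0.04 under 300, and Hmgcs1 by 0.47 ± 0.06 and 0.33 ± 0.06. The share of all genes called in each series is not given here. Animals under 300 were all taken at ZT0 or ZT12, and most in the 300s at ZT6 or ZT18. Number series and time thus cannot be told apart in these values.

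Markers of other tissues and cells were read beside these values, and of the lists given here astrocyte markers held the ones that passed between genotypes. On ALF 13 of 13 choroid plexus markers had a positive log2 difference (median 1.67) and on TRF 0 of 13 (median -0.23), and limma called none, with 11 on ALF and 0 on TRF at an unadjusted p under 0.05. With the choroid plexus level as a covariate, 5 members passed on ALF and 6 on TRF, where 16 and 13 of all 14260 genes were called higher. Fdft1 then differed by 0.45 ± 0.05 on ALF. Of 10 astrocyte markers 0 were positive on ALF (median -0.15, Acsbg1 called) and 1 on TRF (median -0.092). Averaged over feedings, Slc1a2 (-0.24 ± 0.06) and Slc1a3 (-0.15 ± 0.04), both glutamate transporters, and Acsbg1 (-0.15 ± 0.03) were lower in TG. These were named after their values were seen. The summed astrocyte level ran from 153692 to 241365 in TG and 172640 to 278177 in NTG on ALF, and from 124502 to 214646 in TG and 162836 to 232472 in NTG on TRF. Of 10 microglial markers 9 were positive on ALF and 10 on TRF, with none called and 3 and 2 at an unadjusted p under 0.05. Oligodendrocytes make much of the cholesterol of myelin, and 6 of 12 of their markers were positive on ALF (median 0.0016) and 0 on TRF (median -0.077), with none called and 0 and 1 at an unadjusted p under 0.05. With their level as a covariate 5 members passed on ALF and 6 on TRF, where 18 and 14 of all 14260 genes were called higher. Of 8 markers of oligodendrocyte precursors 0 were positive on ALF (median -0.096) and 1 on TRF (median -0.16), with none called and 3 and 4 at an unadjusted p under 0.05. Of 8 endothelial markers 6 were positive on ALF (median 0.045) and 0 on TRF (median -0.16), with none called and 0 and 3 at an unadjusted p under 0.05. The part of astrocyte, microglial, precursor and endothelial markers in the result was not tested, and in bulk tissue fewer cells of a type and less RNA per cell cannot be told apart.

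Of 12 enzymes that take squalene to cholesterol 4 were higher in TG on ALF and 4 on TRF, with none lower and 12 of 12 positive on both (medians 0.18 and 0.19). On both feedings these were Sqle, which oxidizes squalene (0.43 ± 0.04 on ALF and 0.36 ± 0.05 on TRF), Msmo1 (0.42 ± 0.06 and 0.33 ± 0.06), Nsdhl (0.44 ± 0.06 and 0.39 ± 0.06) and Hsd17b7 (0.34 ± 0.05 and 0.23 ± 0.06), the last of which act on sterol intermediates. Averaged over feedings 7 of 12 passed, among them also Ebp (0.20 ± 0.05) and Dhcr7 (0.17 ± 0.03). Of 12 measured genes of sterol sensing and uptake 3 were higher on ALF and 2 on TRF. Among them was Stard4, a cholesterol carrier, on both (0.62 ± 0.07 and 0.51 ± 0.07), and Insig1, which holds the SREBP complex in the endoplasmic reticulum, on ALF (0.35 ± 0.07, adjusted p = 0.00447, limma).

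Lists that share substrates with the arm showed few calls. In acetyl-CoA supply 1 of 5 genes passed in the average over feedings, Acly, which makes cytosolic acetyl-CoA (0.12 ± 0.03, adjusted p = 0.00437, limma). None passed in that average of 5 mitochondrial ketone enzymes (1 at an unadjusted p under 0.05), of 11 genes of the non-sterol branches (ubiquinone, dolichol and prenylation; 0 unadjusted) or of 8 genes of fatty acid synthesis (2 unadjusted, limma). In the last list 2 of 8 log2 differences on ALF and 1 of 8 on TRF were positive.

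Whether feeding hours changed the arm was tested within each genotype. No member passed the test of TRF against ALF in TG mice (0 of 8, 2 at an unadjusted p under 0.05, where 0.54% of all genes were called, limma). The same held in NTG mice (0 of 8, 0 at an unadjusted p under 0.05, where 0.0281% of all genes were called). The count was also 0 with voom weights in both.

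In TG mice Fdft1 averaged 5040 ± 602 on TRF and 4878 ± 505 on ALF (SD), a log2 difference of 0.05 with a 95% interval of -0.03 to 0.13. In NTG mice it averaged 3718 ± 387 on TRF and 3542 ± 394 on ALF, with 0.06 and an interval of -0.03 to 0.15. For Fdps the interval ran from -0.05 to 0.13 in TG and from -0.09 to 0.10 in NTG, and for Hmgcs1 from -0.20 to 0.04 in TG and from -0.12 to 0.14 in NTG. For these genes the intervals hold 0 and lie below the genotype differences. In TG those of Pmvk (0.03 to 0.38) and Mvk (0.03 to 0.26) leave out 0 before adjustment. Both reach above the genotype differences of these kinases on ALF (0.08 and 0.14).

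The kinases had the smallest unadjusted p. In TG mice Pmvk averaged 1060 ± 117.7 on TRF and 932 ± 175 on ALF (0.20 ± 0.09, unadjusted p = 0.0203, adjusted p = 0.219, limma), and Mvk averaged 802 ± 127.1 on TRF and 725 ± 98.7 on ALF (0.15 ± 0.06, unadjusted p = 0.0163, adjusted p = 0.204). In NTG mice both were near 0, at -0.0084 ± 0.092 for Pmvk and 0.0062 ± 0.064 for Mvk. The difference between genotypes in the feeding effect did not pass for any member (0 of 8, 0 at an unadjusted p under 0.05, 0% of all genes called, limma). It was 0.21 for Pmvk (95% interval -0.04 to 0.46) and 0.14 for Mvk (-0.03 to 0.31), and between -0.08 for Hmgcs1 and 0.08 for Acat2 for the others. Choroid plexus markers moved with feeding in TG, where 0 of 13 were positive (median -1.42, none called and 5 at an unadjusted p under 0.05), and with the choroid plexus covariate the count of members was 0. Of 8 endothelial markers 0 were positive in the same comparison (median -0.21) and 1 was called lower, and their part in these values was not tested.

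At single times the feeding comparison was also without a call. At ZT0, 12 animals on TRF against 13 on ALF gave 0 of 8 members (0.0491% of all genes called), and at ZT12, 11 against 12 gave 0 of 8 (0.00701%), with 0 and 1 at an unadjusted p under 0.05 (limma). With voom weights both counts were also 0, as were those of the genotype by feeding, genotype by time and NTG group tests. The one at ZT12 was Fdps (0.11 ± 0.05, unadjusted p = 0.0488, adjusted p = 1).

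Time of sacrifice was tested over the 4 times with both genotypes and feedings in the model. Of the 8 members 6 passed, where 35.6% of all genes did, and those without a call were Pmvk (adjusted p = 0.385) and Idi1 (0.0652, limma F test). The smallest adjusted p were those of Fdft1 (9.36e-06), Hmgcs1 (0.000481) and Fdps (0.000528). ZT6 and ZT18 hold only animals numbered in the 300s, so between these times and ZT0 or ZT12 the time and the number series cannot be told apart.

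**Figure D3:**
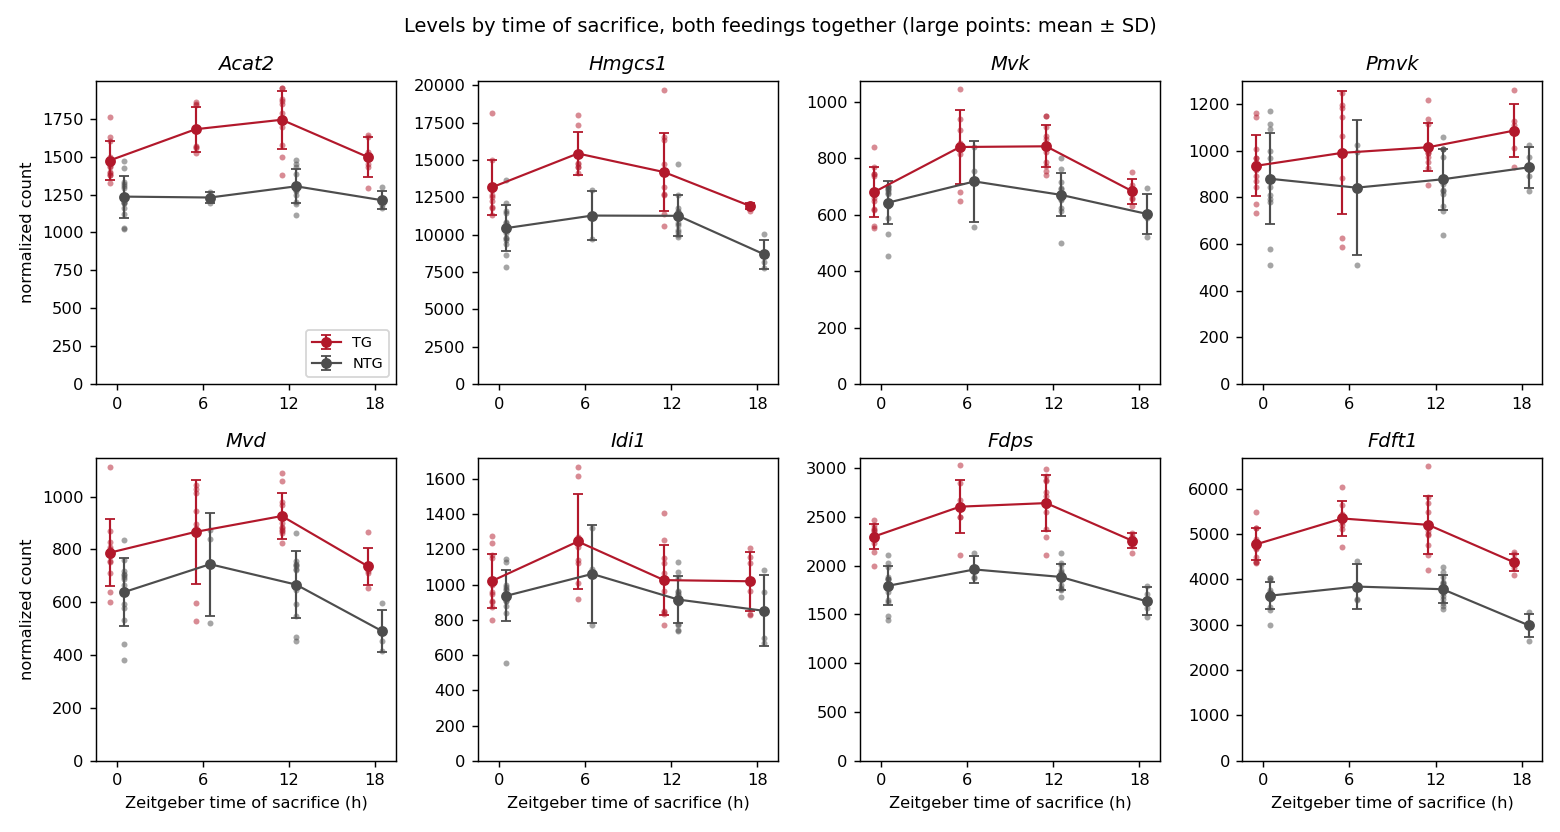
Normalized count (y axis, from 0) against Zeitgeber time of sacrifice (x axis, h), TG in red and NTG in grey with both feedings together, small points for animals and large points with bars for the mean ± SD. The TG mean is above the NTG mean at all 4 times for every gene. The lowest mean of Hmgcs1, Mvd, Idi1, Fdps and Fdft1 is at ZT18 in both genotypes. For Idi1 in TG the means at ZT18 and ZT0, 1018.7 and 1019.7, all but meet.

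For Hmgcs1 the mean was 13158, 15427, 14186 and 11916 normalized counts at ZT0, ZT6, ZT12 and ZT18 in TG mice (n = 12, 8, 11 and 6), and 10436, 11275, 11258 and 8674 in NTG mice (n = 13, 3, 12 and 4). Fdft1 averaged 4771, 5341, 5200 and 4371 in TG and 3640, 3840, 3782 and 2985 in NTG at the same times, with SDs of 350.4, 391, 639.7 and 189.9 in TG and 293, 493, 305.2 and 261 in NTG. The SDs of Hmgcs1 at ZT6 and ZT12 were 1433 and 2585 in TG and 1655 and 1363 in NTG. In both genotypes the means of these 2 genes were lowest at ZT18, which lies inside the hours of food on TRF. Their highest means were at ZT6, but those at ZT6 and ZT12 did not stand apart beyond their spread.

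ZT18 against ZT6 compares animals of 1 number series. Of the 8 members 5 were lower at ZT18, where 1.65% of all genes were called lower: Hmgcs1 (-0.37 ± 0.09, adjusted p = 0.00726), Mvk (-0.27 ± 0.08, 0.0481), Mvd (-0.42 ± 0.12, 0.0385), Fdps (-0.23 ± 0.06, 0.0245) and Fdft1 (-0.31 ± 0.06, 0.000932, limma). In TG mice Fdft1 ranged from 4094 to 4604 at ZT18 (6 animals) and from 4702 to 6034 at ZT6 (8 animals). In NTG mice it was 2651, 3038, 3285 and 2965 at ZT18, and 3557, 3554 and 4409 at ZT6. No animal at ZT18 reached the lowest animal of its genotype at ZT6. The groups are small, and the share of all genes that part in this way is not given here. Hmgcs1 ranged from 11573 to 12055 at ZT18 and from 14092 to 17981 at ZT6 in TG, with no overlap. In NTG it was 7759, 8706, 10035 and 8197 at ZT18 and 11168, 9676 and 12981 at ZT6, where 1 animal at ZT18 stood above 1 at ZT6.

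Pmvk was the member with a positive value, at 0.15 ± 0.13 (adjusted p = 0.638), and Idi1 (-0.30 ± 0.12, 0.154) and Acat2 (-0.09 ± 0.07, 0.585) did not pass. Only 2 members passed without NTG_TRF_326, 1 of the 4 NTG animals at ZT18, and 2 with voom weights. Of the list from squalene to cholesterol 6 of 12 were lower at ZT18, with Msmo1 at -0.40 ± 0.08 and Dhcr7 at -0.29 ± 0.06, and Insig1 was at -0.55 ± 0.10. Of 12 oligodendrocyte markers 2 were higher and 1 was lower at ZT18 (median 0.26), and 0 of 13 choroid plexus markers were positive (median -0.45). With the level of either list as a covariate 5 members passed.

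ZT12 against ZT0 rests on 23 and 25 animals. Of the 8 members 3 were higher at ZT12, where 13.3% of all genes were called higher and 12.8% lower. Acat2 averaged 1514 ± 270 at ZT12 and 1351 ± 178 at ZT0 (SD), a log2 difference of 0.16 ± 0.04 (adjusted p = 0.003, limma). Mvk averaged 752 ± 114.6 at ZT12 and 660 ± 82.5 at ZT0 (0.19 ± 0.05, adjusted p = 0.00377). Fdps averaged 2246 ± 442 at ZT12 and 2035 ± 306 at ZT0 (0.14 ± 0.04, adjusted p = 0.00444). The SDs hold the genotype difference as well. At ZT12 0 of 13 choroid plexus markers were positive (median -0.55), and 3 members passed with the choroid plexus covariate. Of 8 oligodendrocyte precursor markers 5 were lower and 1 was higher (median -0.28), and of 8 endothelial markers 6 were lower and 1 was higher (median -0.36). The part of both lists in these values was not tested. Averaged over feedings, the genotype difference of the same genes was 0.34, 0.20 and 0.43.

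Within single groups 1 member passed in TG on ALF (1.01% of all genes called higher) and 1 in TG on TRF (1.48%), and none in NTG on ALF (0 of 8, 0 at an unadjusted p under 0.05, 2.17% of all genes called in either direction) or on TRF (0 of 8, 2 unadjusted, 0.596% in either direction, limma). In TG on ALF, Acat2 ranged from 1376 to 1952 at ZT12 and from 1378 to 1454 at ZT0, with 5 of 6 animals at ZT12 above all at ZT0 (0.30 ± 0.08, adjusted p = 0.0307). The call was lost without TG_ALF_13, and with array weights or the choroid plexus covariate. In TG on TRF, Mvk was 949, 910, 771, 949 and 878 at ZT12, all above the range of 616 to 769 at ZT0 (0.38 ± 0.11, adjusted p = 0.0262). That call was lost without TG_TRF_323, and 2 members passed without TG_TRF_121.

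**Figure D4:**
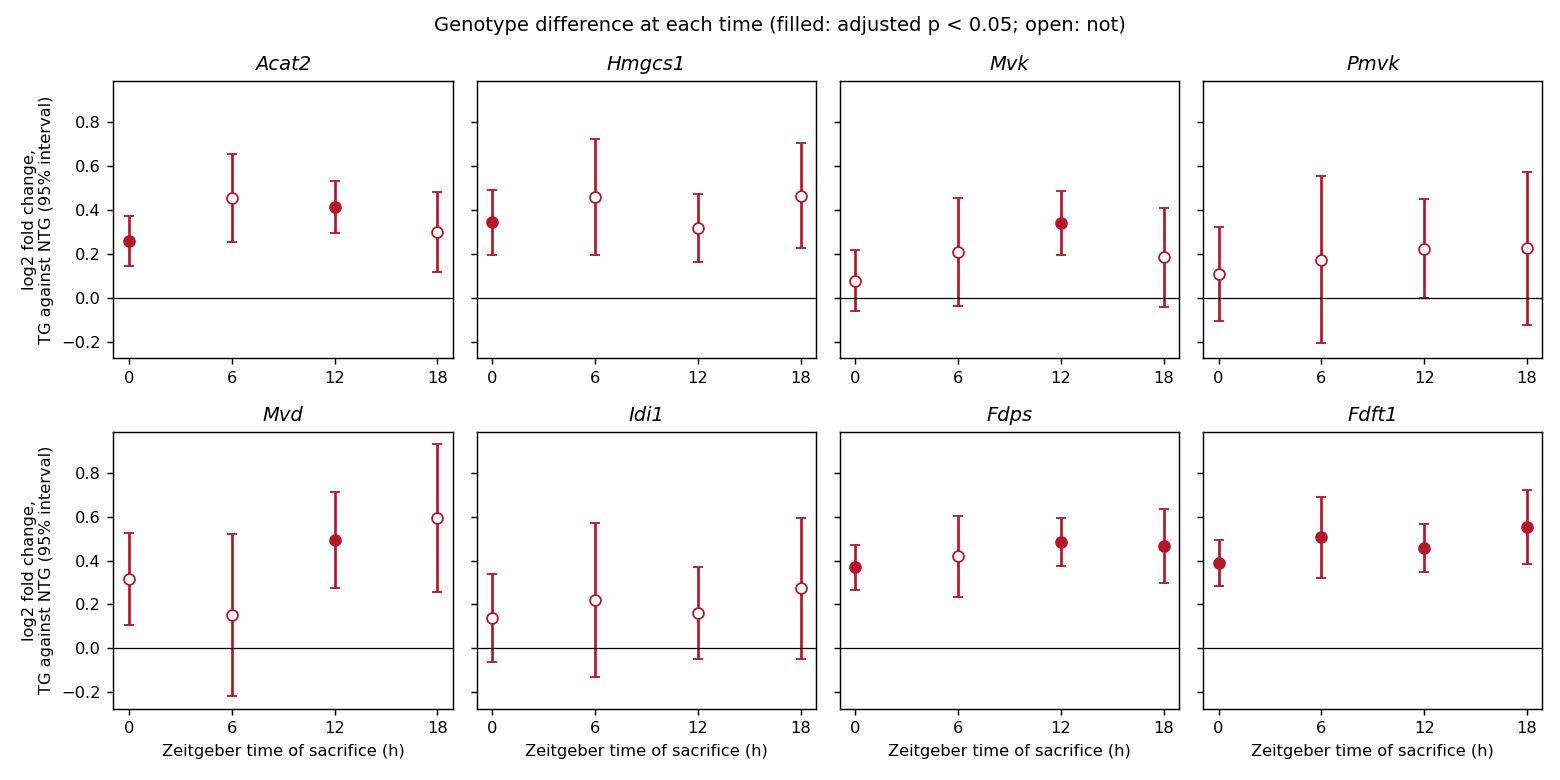
Log2 fold change of TG against NTG with its 95% interval (y axis) at each Zeitgeber time of sacrifice (x axis, h), 1 panel per gene. Filled points passed an adjusted p of 0.05. All 32 points lie above 0, and Fdft1 is filled at all 4 times, from 0.39 at ZT0 to 0.55 at ZT18.

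The genotype difference was then taken at each time. The members called higher in TG were 4 of 8 at ZT0 (0.0771% of all genes), 1 at ZT6 (0.014%), 5 at ZT12 (0.105%) and 2 at ZT18 (0.0421%), and all 8 were positive at each time. At ZT0 these were Acat2, Hmgcs1, Fdps and Fdft1, and at ZT12 Acat2, Mvk, Mvd, Fdps and Fdft1. Fdft1 passed at all 4 times, with log2 differences of 0.39 ± 0.05, 0.51 ± 0.09, 0.46 ± 0.05 and 0.55 ± 0.08 at ZT0, ZT6, ZT12 and ZT18. Fdps was at 0.37 ± 0.05, 0.42 ± 0.09, 0.48 ± 0.05 and 0.47 ± 0.08 and passed at all but ZT6 (adjusted p = 0.095, limma).

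The SEs were larger at ZT6 and ZT18, where NTG had 3 and 4 animals. Fdft1 ranged from 4702 to 6034 in the 8 TG animals at ZT6 and from 4094 to 4604 in the 6 TG animals at ZT18, and each TG range lay above the NTG animals given above for the same time. For Mvk the difference was 0.08 ± 0.07 at ZT0 and 0.34 ± 0.07 at ZT12, and for Mvd 0.31 ± 0.10 and 0.49 ± 0.11. Whether the genotype difference changed with time was tested over the 4 times, and no member passed (0 of 8, 0 at an unadjusted p under 0.05, 0% of all genes called, limma F test). The smallest unadjusted p was 0.0945 (Mvk). Without NTG_ALF_136 the count at ZT0 was 2, without NTG_TRF_309 that at ZT6 was 0 and without TG_ALF_310 it was 2, without NTG_ALF_26 that at ZT12 was 3, and without NTG_ALF_325 that at ZT18 was 1.

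The members were also compared between animals of the same group and time, by the residuals of 68 animals from the 16 group-by-time means (1 group and time had 1 animal). Over the 28 pairs Pearson's r ran from -0.46 to 0.66 with a median of 0.25. These are given as a description with no test, since the values of an animal share its library. The genes fell into sets by sign. Hmgcs1 went with Idi1 (r = 0.57) and Fdft1 (0.59), and Pmvk went with Mvd (0.66) and Mvk (0.57), while Pmvk ran against Hmgcs1 (-0.44) and Idi1 (-0.46). Fdps and Fdft1, the last enzymes of the arm, were at 0.64.

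The sets also differ in the base composition of their transcripts. Hmgcs1 and Idi1 have the lowest GC content in their longest coding transcript, 43.1% and 41.9%, and Pmvk, Mvk and Mvd the highest, 57%, 59.6% and 59.3%, with Acat2, Fdft1 and Fdps at 49.6%, 51.8% and 54.5%. For each animal the slope of log2 values on transcript GC was taken over the 13173 genes with a value, 92.4% of the table. It ran from -0.28 to 0.26 per 10 points of GC, and averaged 0.0027 ± 0.104 in TG and -0.0031 ± 0.114 in NTG (SD, n = 37 and 32). Over the 68 animals the residuals of Pmvk, Mvd and Mvk had r = 0.72, 0.64 and 0.52 with this slope, and those of Hmgcs1, Idi1 and Fdft1 had -0.59, -0.60 and -0.39, while Acat2 (0.08) and Fdps (0.03) were near 0.

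With the slope removed, r over the 28 pairs ran from -0.06 to 0.71 with a median of 0.34, and 2 pairs were negative, against 8 before. Hmgcs1 and Mvd were at r = 0.53 after and -0.05 before, and Fdps and Fdft1 at 0.71 after and 0.64 before. The pairs within the sets had lower values after, at 0.37 for Pmvk and Mvd, 0.33 for Pmvk and Mvk, 0.34 for Hmgcs1 and Idi1 and 0.48 for Hmgcs1 and Fdft1, and 3 pairs were above 0.5, against 6 before. The sets were read from these same residuals, so removing a slope that their genes follow can by itself change r in this way. The part of GC content in the sets was not tested. With the slope as a covariate, an alternative added after the data were seen, 5 members were higher in TG on ALF and 6 on TRF. The log2 differences moved little, to 0.46 ± 0.04 for Fdft1 and 0.39 ± 0.07 for Mvd on ALF, where the adjusted p of Mvd became 0.000876 (limma). Averaged over feedings, Pmvk (0.17 ± 0.05, adjusted p = 0.0754) and Idi1 (0.19 ± 0.05, adjusted p = 0.0631) stayed short of the threshold.

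**Figure D5:**
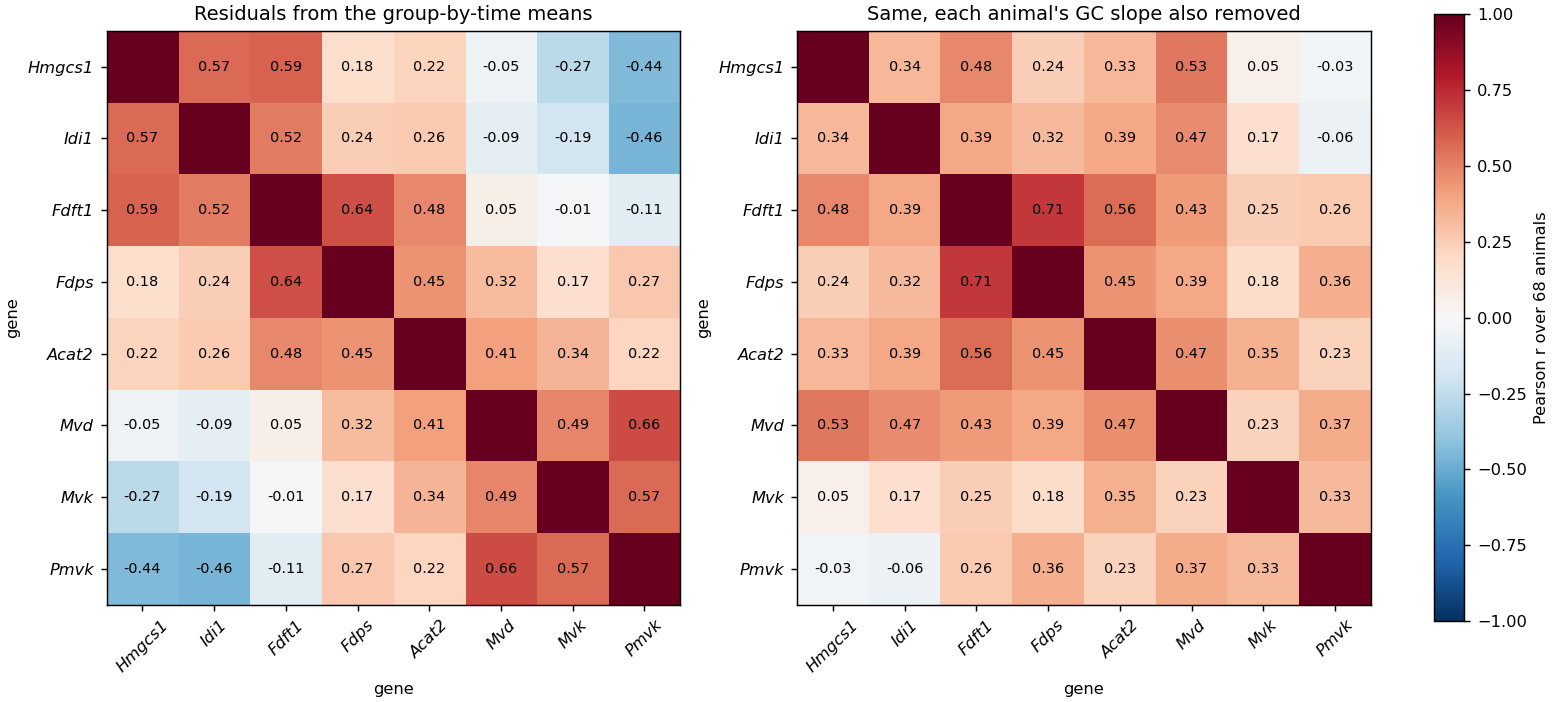
Pearson r between the residuals of each pair of genes over 68 animals (colour and printed value, both axes list the genes), from the group-by-time means at left and with each animal's slope on transcript GC also removed at right. At left Pmvk is negative with Hmgcs1 and Idi1, at -0.44 and -0.46, and at right these are -0.03 and -0.06.

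The genes most like the members between animals were found by r with the mean of the 8 standardized residuals, before the slope was removed. Of the 10 highest, 4 were enzymes from squalene to cholesterol: Msmo1 (r = 0.63), Nsdhl (0.56), Sqle (0.54) and Hsd17b7 (0.53). The others were Cfdp1 (0.57), Pmm1 (0.54), Hspd1 (0.53), Surf6 (0.53), 6330403K07Rik (0.53) and Fabp7 (0.52). None of these 6 passed the test between genotypes on either feeding, with log2 differences from -0.19 for Fabp7 on TRF to 0.10 for Cfdp1 on TRF. Over the 12 genes of the list from squalene to cholesterol r had a median of 0.37, against 0.0027 over all other genes. Of single members, Acat2 (r = 0.63), Fdps (0.60) and Fdft1 (0.56) followed the mean of the other members most closely, and Pmvk least (0.17).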

How the data were processed

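RNA of hippocampus from 1 hemisphere was poly-A selected and sequenced, per the labels' protocols, which name Trimmomatic on Galaxy. HISAT2, featureCounts and DESeq2 are named without versions, and GRCm38 as the build, per the submitters' processing notes. The deposited signal values are gene counts that the authors divided by 1 size factor per library. Within 0.01, 100% of values were whole multiples of 1 step per library, from which reads were estimated. Animals were grouped by the genotype, feeding and time in the labels. The 70 libraries were taken as 69 animals, with NTG_TRF_232 and 232R averaged, which the labels do not state.

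Tests used limma 3.58.1 in R 4.3.3 on log2(value + 1), with variance trend and robust moderation, 2-sided, adjusted by Benjamini-Hochberg over all 14260 genes, calling an adjusted p under 0.05. The values are deposited as divided counts, so the count test first planned was not used. Counts estimated from the whole multiples served only for the alternative with voom weights. Requiring a mean of 10 or more removed 0 genes, and the lowest mean was 40.8. Genotype and feeding were fitted as 4 group means with a term for each time, and genotype by time as 16 means. Fold changes are on the log2(value + 1) scale. Every p-value measures the spread between animals. The fit was tested on simulated data. The lowest library held an estimated 27.9 M reads in the genes of the table. The number of animals limits the precision, as does variation between libraries. Transcript lengths and GC content are from GENCODE vM21. Groups were refitted under 15 alternatives, without each animal in turn where the fit allowed it, and under 3 alternatives added after the data were seen.

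The 8 genes and all lists were chosen with earlier results of these data known. All 8 are named, and other genes where they passed or rank among the 10 most alike. One further enzyme of the arm and single genes of the other lists are not reported here.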

Additional observations from a re-analysis of the deposited data

Results flagged for a closer look

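In 80 combinations of gene, group and time with 4 to 10 animals, the highest or lowest animal was set against the others by Dixon's criterion, and 7 stood apart. Chance alone gives about 1 in 20. At ZT6, TG_TRF_308 had 1571 normalized counts of Acat2, with the other 3 animals between 1843 and 1862. TG_TRF_315 had 17981 of Hmgcs1, with the other 3 between 14093 and 14726. TG_ALF_310 had 1665 of Idi1, with the other 3 between 1121 and 1212, and 2105 of Fdps, with the other 3 between 2577 and 2671. It was thus the highest of its group and time for one enzyme and the lowest for the other. At ZT12, TG_TRF_24 had 6489 of Fdft1, with the other 4 between 4751 and 5226, and NTG_TRF_233 had 467 of Mvd, with the other 5 between 723 and 861. At ZT0, NTG_TRF_202 had 557 of Idi1, with the other 5 between 837 and 987.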

How the results depend on the processing

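Over 15 other settings and 69 fits that left out 1 animal, Acat2, Fdps and Fdft1 passed on ALF and on TRF in all. Hmgcs1 on TRF was lost with ZT0 and ZT12 animals alone, Mvd on ALF passed in 11 of 15 and 46 of 69, and Mvk on TRF in 12 of 15 and 56 of 69. With ZT0 and ZT12 alone, 3 members passed for TG against NTG on TRF and 3 for time of sacrifice. For ZT12 against ZT0, 5 passed with quantile normalization, with voom and with the GC slope. For ZT18 against ZT6, 2 passed with voom. For genotype at ZT6, 3 passed with quantile normalization and 2 without the 5 animals of lowest correlation. For ZT12 against ZT0 in TG on ALF, 0 passed with array weights, with the choroid plexus covariate and without those 5 animals, and in TG on TRF 0 passed with number series as covariate.

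Leaving out 1 animal, counts for TG against NTG ran from 4 to 5 on ALF, from 4 on TRF (without NTG_TRF_312) to 6, and stayed at 6 in the average. For time they ran from 6 to 7, for ZT12 against ZT0 from 3 to 4, and for ZT18 against ZT6 from 2 to 5. For genotype they ran from 2 to 4 at ZT0, 0 to 2 at ZT6, 3 to 6 at ZT12 and 1 to 2 at ZT18. For ZT12 against ZT0 they ran from 0 to 1 in TG on ALF and 0 to 2 in TG on TRF. In all feeding comparisons, both interactions and ZT12 against ZT0 in NTG groups, the count was 0 in every fit.

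ZT12 against ZT0 changed sign for values near 0. Pmvk was at -0.0030 without the 5 animals. Idi1 was at 0.016 with voom, 0.014 with number series, 0.0019 without the 5 animals, 0.037 with the GC slope and from -0.036 to 0.014 without 1 animal. The causes were not tested. With the GC slope, 113 genes passed for genotype averaged over feedings, 50 on ALF and 37 on TRF, where 64, 27 and 19 did without it. No paired analysis was possible because animal numbers are unique and groups share none. NTG animals at ZT6 (3) and ZT18 (4) limit what those times can show.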

Other observations

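Of 5 mitochondrial ketone enzymes 2 were higher and 1 was lower at ZT12 than at ZT0, where 13.3% of all genes were called higher and 12.8% lower. Bdh1, which interconverts the ketone bodies in mitochondria, was higher at ZT12 than at ZT0 (log2 0.26 ± 0.04, SE, adjusted p = 2.57e-07, limma, n = 23 and 25) and lower at ZT18 than at ZT6 (-0.25 ± 0.06, adjusted p = 0.00915). Its genotype difference was -0.0033 ± 0.043 on ALF and -0.012 ± 0.043 on TRF. Acat1, the mitochondrial thiolase, was also higher at ZT12 than at ZT0 (0.11 ± 0.04, adjusted p = 0.0236). Of 8 genes of fatty acid synthesis 0 were higher and 3 lower at ZT12, in the same comparison: Elovl6 (-0.19 ± 0.05, adjusted p = 0.00292), Fads2 (-0.14 ± 0.05, adjusted p = 0.0245) and Elovl5 (-0.10 ± 0.04, adjusted p = 0.0419, limma), which lengthen or desaturate fatty acids.

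The enzymes from squalene to cholesterol were mixed at ZT12 against ZT0, with 4 of 12 higher and none lower. Lss, which folds oxidized squalene into the sterol ring system, had 0.32 ± 0.06 (adjusted p = 2.13e-05, limma), and Nsdhl 0.21 ± 0.05 (adjusted p = 0.00177), beside Msmo1 at 0.01 ± 0.05 and Cyp51 at -0.00089 ± 0.039, which did not pass. Of 8 markers of oligodendrocyte precursors 5 and of 8 markers of endothelium 6 were lower at ZT12, and their part in these values was not tested.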
